A study of Mus musculus with 2 samples.

Results

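The ubiquitin-specific proteases (USPs) were taken as every gene whose symbol starts with Usp followed by a number and for which the array held a probe set naming that gene alone. This gave 55 of the 19946 genes measured. Most are deubiquitinases, but 2 symbols that match lie outside the protease family: Usp6nl encodes a Rab GTPase-activating protein, and Usp46os2 is a non-coding RNA gene. Usp39, which lacks protease activity, and Usp18, a protease of the ubiquitin-like modifier ISG15, were kept as members. Where a gene had more than 1 probe set, the one with the highest mean over both arrays was used.

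The samples were mouse embryonic fibroblasts, connective tissue cells cultured from embryos, carrying adenoviral LacZ, a bacterial enzyme gene. 1 culture received the solvent DMSO and the other 250 nM celastrol, a plant triterpenoid, for 7 h. Both conditions shared the LacZ adenovirus and medium with 1% FBS. Each condition was read on 1 array, so no difference has a replicate check, no test was possible, and culture, array and compound cannot be told apart. Values are log2 expression after RMA, and a difference is celastrol minus DMSO on that scale.

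USPs are cysteine proteases that remove ubiquitin from proteins. By cutting the bond between ubiquitin and its target or within a chain, they can spare a protein from the proteasome, switch a signal off or recycle ubiquitin. Different members act on histones, DNA repair factors, receptors on endosomes, mitochondrial proteins and the ubiquitin-like modifier ISG15. Several form pairs of close relatives that arose by gene duplication, and the mouse Usp17l genes form a family of nearly identical copies first described as cytokine-induced genes of blood cells.

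A gene counted as detected above 5.73 in at least 1 array. That limit is the level under which 95% of the values of 1210 olfactory and vomeronasal receptor probe sets fell, genes that fibroblasts are not known to use. Of the 55 members, 47 passed, 43 of them in both arrays and 4 (Usp17la, Usp17lb, Usp17lc and Usp17ld) in the celastrol array alone. Usp9y, Usp13, Usp26, Usp29, Usp35, Usp44, Usp50 and Usp51 were below the limit in both arrays. Among receptor probe sets the central 95% of differences ran from -0.42 to 0.41, a scatter within these arrays that holds no variation between cultures. It comes from probe sets mostly below the limit, and whether brighter probe sets scatter alike was not tested. Of 12 fibroblast markers 11 were above the limit in both arrays, Col1a1 at 12.16 and 11.69 and Vim at 13.85 and 13.95, and Lum was below it. Some markers of other cell types were above the limit in at least 1 array: 3 of 7 for leukocytes, 3 of 5 for endothelium, 4 of 5 for epithelium, 3 of 4 for neural cells and 3 of 4 for muscle, with Tnnt2 at 8.34 and 9.21, and 0 of 3 for germ cells. Their part in the USP values was not tested.

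The family as a whole differed little, and the 2 members with the largest differences in opposite directions were Usp17la, higher with celastrol, and Usp46, lower. Of the 47 detected members, 2 were at least 1.5-fold higher (Usp17la and Usp17ld), a share of 4.26% beside 6.19% of all 13902 detected genes. Another 2 (Usp46 and Usp21) were lower by that size, again 4.26%, beside 4.68%. Both shares lie near or below the background, so the counts set the USPs apart in neither direction. Without the Usp17l genes, Usp6nl and Usp46os2, 0 members were higher and 2 lower by that size. At 2-fold, Usp17la alone was higher (1.88% of detected genes were) and 0 members were lower (0.662%). The median difference was 0.09, beside -0.01 for all detected genes, and 32 of 47 members lay above 0 (68.1%, beside 48.1%). Among the 43 members above the limit in both arrays the median was 0.07 and 28 were positive (65.1%, beside 47.3%), and with no limit 34 of 55 were (61.8%, beside 48.8%). Differences of 29 detected members were smaller than 0.25 in either direction (61.7%, beside 58.4%).

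**Figure D1:**
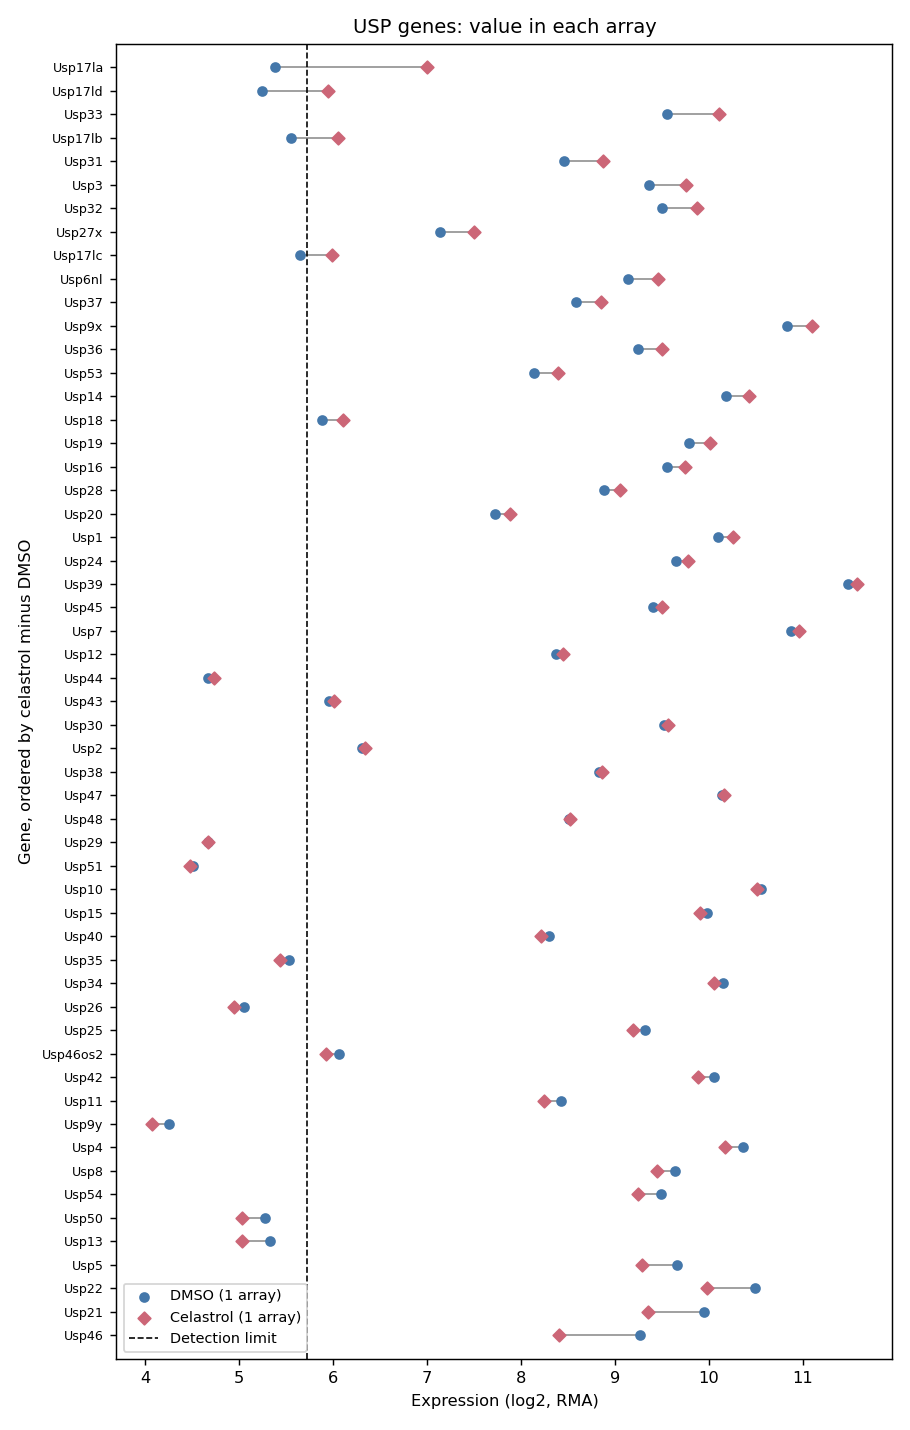
Log2 RMA value of each of the 55 USP genes in the DMSO array (circles) and the celastrol array (diamonds), ordered by their difference, with the detection limit dashed. Most pairs of symbols nearly touch. Usp17la, with the longest bar, starts below the limit at 5.38 and ends at 7.00, while Usp46 goes from 9.27 with DMSO to 8.41 with celastrol.

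**Figure D2:**
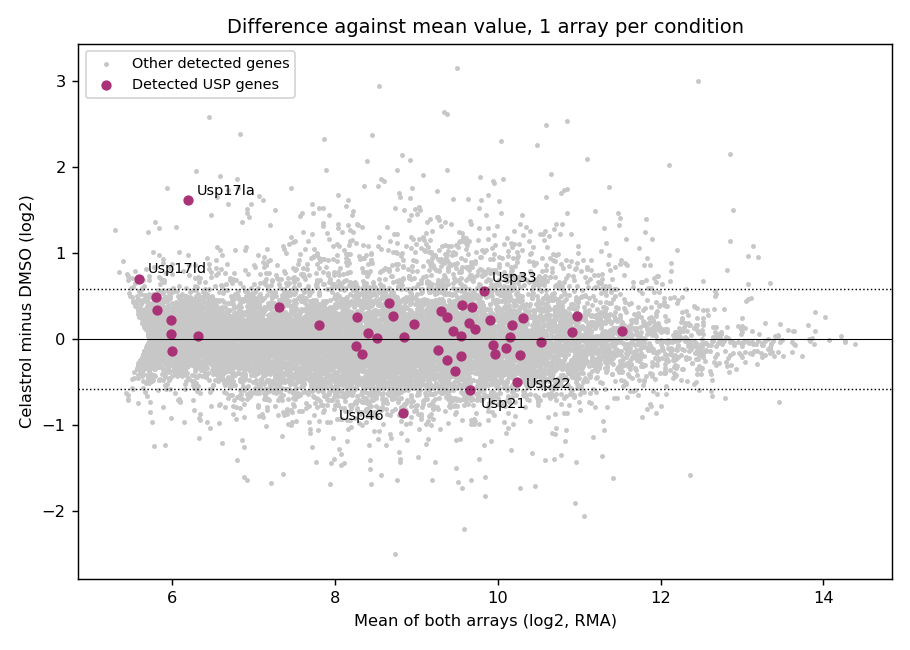
Celastrol minus DMSO (log2) against the mean of both arrays (log2) for the 47 detected USP genes (purple) and the other detected genes (grey), 1 array per condition, with dotted lines at 1.5-fold. Usp17la and Usp17ld lie at the dim end above the upper line, and Usp46 and Usp21 lie below the lower one.

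The Usp17l genes are shown first as sequence, because these 4 members form 1 gene family that includes Usp17la, which had the highest difference. The stretches lie upstream of the transcripts, so they say nothing of what the probe sets can tell apart. Each stretch below is 110 bases of the promoter, given 5′ to 3′ on the gene's own strand and aligned at a run of letters that the 4 genes share. The sequences are from RefSeq on GRCm38.p6. Capitals mark TATAAAA, the letters of a TATA box, searched on both strands.
Usp17la, chr7:104856875-104856984, plus strand: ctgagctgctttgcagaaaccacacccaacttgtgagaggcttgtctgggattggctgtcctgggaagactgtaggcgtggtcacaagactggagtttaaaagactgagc
Usp17lb, chr7:104842600-104842709, minus strand: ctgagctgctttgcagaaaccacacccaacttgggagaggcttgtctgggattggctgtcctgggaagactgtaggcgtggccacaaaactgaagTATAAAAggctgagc
Usp17lc, chr7:103416513-103416622, plus strand: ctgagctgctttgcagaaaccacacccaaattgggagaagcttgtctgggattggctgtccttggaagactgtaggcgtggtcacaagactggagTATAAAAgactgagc
Usp17ld, chr7:103252601-103252710, minus strand: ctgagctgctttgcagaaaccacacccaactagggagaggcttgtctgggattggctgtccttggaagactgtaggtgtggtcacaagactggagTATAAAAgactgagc
The stretches were between 93.6% and 96.4% identical in the 6 pairwise alignments. TATAAAA was present in those of Usp17lb, Usp17lc and Usp17ld and in no other USP promoter examined, and Usp17la had no match in its window. The stretches end 31 bases before the RefSeq start for Usp17la, 16 for Usp17lb, 73 for Usp17lc and 95 for Usp17ld. The motif thus lies at unlike distances from these starts, and whether it works as a TATA box was not tested. Over all genes, 5.85% had the motif within 250 bases upstream of a RefSeq start.

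The probe sets naming 1 Usp17l gene alone, for 4 genes, were below the detection limit with DMSO and above it with celastrol. Usp17la read 5.38 with DMSO and 7.00 with celastrol, a difference of 1.61. Since the DMSO value is below the limit, the celastrol value of this probe set is at least 2.41-fold higher, measured against the limit. Usp17ld read 5.24 and 5.94, a difference of 0.70, but only at least 1.16-fold against the limit, so counted at the bound 1 member in place of 2 passes 1.5-fold. Usp17lb read 5.55 and 6.05, at least 1.25-fold by the same measure. Usp17lc read 5.65 and 5.99, at least 1.20-fold. These 4 passed the filter only through the array in which they were higher, so they had to differ in that direction, and their shared sign is a description. A further probe set that names Usp17la, Usp17lc, Usp17ld and Usp17le together read 6.24 and 6.67, a difference of 0.43. It was above the limit in both arrays, so the single-gene probe sets do not show that the family was silent with DMSO. How much each probe set reads from the other copies was not tested, so which of these genes gave the signal is uncertain. Markers of leukocytes, the cells in which these genes were described, were mostly dim: Ptprc, Adgre1, Itgam and Lyz2 (4 of 7) were below the limit in both arrays, with Ptprc at 5.50 and 5.71. The mean of the 7 markers was 5.67 with DMSO and 6.03 with celastrol, and Cd68 (1.47), Cd14 (0.71) and Csf1r (0.26) were the detected ones. Their part in the Usp17l values was not tested.

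At the other end, Usp46 and Usp21 had the lowest differences. Their promoters are shown because they contrast with the Usp17l stretches in base composition. Each line is the 150 bases directly upstream of the RefSeq start (GRCm38.p6), with capitals on GGGCGG, a GC box, or its reverse complement.
Usp46, chr5:74068412-74068561, minus strand: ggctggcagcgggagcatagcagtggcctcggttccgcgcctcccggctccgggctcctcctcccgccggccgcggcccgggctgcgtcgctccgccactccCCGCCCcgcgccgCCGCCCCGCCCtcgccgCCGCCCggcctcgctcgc
Usp21, chr1:171287962-171288111, minus strand: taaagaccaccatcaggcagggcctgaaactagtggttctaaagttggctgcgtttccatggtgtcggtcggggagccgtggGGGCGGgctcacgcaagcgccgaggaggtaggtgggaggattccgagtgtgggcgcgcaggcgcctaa
The Usp46 stretch holds 4 GC box matches, of which 2 overlap, and the Usp21 stretch holds 1. Within 250 bases upstream, Usp46 has 33 CG dinucleotides and Usp21 has 14, beside 1 each for Usp17la, Usp17lb and Usp17lc, 0 for Usp17ld and a median of 6 over all 32851 windows. Of these windows, 70.6% have fewer than Usp21. The genes in this contrast were picked from the ends of the differences, and other members depart from it. Usp7 has 55 and a difference of 0.08, Usp32 has 26 and 0.37, and Usp54 has 4 and -0.25. Whether CG content goes with the difference over the family was not tested. GC boxes were found for 26 of the 43 USP genes with a promoter in the table, beside 35.4% of all genes, including members with differences above 0 such as Usp3 and Usp31 and members below 0 such as Usp4 and Usp8.

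The heat shock element searched was GAA, TTC and GAA, each separated by 2 bases of any kind. Matches to it were found for 0 of 43 members (0.514% of all genes). The ATF4 element TGATGNAA was found for Usp26 alone (3.91% of all genes), which was below the detection limit. The antioxidant element TGACNNNGC occurred for 8 of 43 members, 18.6% beside 11.5% of all genes. Of these, Usp25 and Usp34 had differences below 0, as did Usp13 and Usp26, which were below the detection limit. The others were Usp17la, Usp17lc, Usp20 and Usp36. The E-box CACGTG occurred for Usp4, Usp6nl, Usp16 and Usp31 (9.30% of the 43, beside 6.86% of all genes). All were searched on both strands within 250 bases upstream, where matches to different motifs may overlap, and a match is a description of letters only.

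Genes of free ubiquitin recycling went in different directions. Usp5 encodes isopeptidase T, which takes apart unanchored ubiquitin chains, and read 9.66 with DMSO and 9.29 with celastrol, 1.29-fold lower. Usp14, the ubiquitin-trimming protease bound to the proteasome, read 10.18 and 10.43, 1.18-fold higher. Usp13, a relative of Usp5, was below the limit at 5.33 and 5.03. The difference of Usp5 lies within the receptor scatter given above, as does that of Usp14. Other deubiquitinases of the proteasome also differed by small amounts, with Uchl5 at -0.01 and Psmd14, the lid metalloprotease, at 0.27.

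Among the USPs of histones and transcription, 6 of 8 measured members were detected, 1 of them lower and 0 higher by 1.5-fold or more. Of all detected genes, 4.68% were lower and 6.19% higher by that size. Usp21, which acts on histone H2A and on signalling proteins, read 9.95 with DMSO and 9.36 with celastrol, 1.51-fold lower. That value was just past 1.5-fold, and it came to -0.58 with quantile normalization and -0.53 with a lowess trend subtracted, short of it. Usp22, the deubiquitinase of the SAGA coactivator complex, read 10.49 and 9.99, 1.42-fold lower. Usp27x, a relative of Usp22 that can take its place on the same module, read 7.13 and 7.50, 1.29-fold higher. These 2 related genes thus had differences of opposite sign, though that of Usp27x lies within the receptor scatter. The relative Usp51 was below the limit at 4.50 and 4.48. The adaptor subunits of that module were also not alike, with Eny2 1.49-fold lower (9.94 and 9.36), Atxn7l3 at 0.16 and Atxn7 at 0.20. Usp3, another histone H2A deubiquitinase, read 9.36 and 9.76, 1.32-fold higher, and Usp16, which removes ubiquitin from H2A in mitosis, read 9.56 and 9.74. Usp39, a splicing factor that lacks protease activity, read 11.48 and 11.58. The probe set for Usp49 also names Med20 and was left out.

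None of the 10 members of the DNA repair, p53 and cell cycle list reached 1.5-fold, and all were detected, with differences from -0.17 to 0.27. Usp37, which stabilizes cyclin A, was the highest at 8.59 with DMSO and 8.85 with celastrol. Usp36, a nucleolar protease, followed at 9.25 and 9.50, and Usp28, which stabilizes MYC, at 8.88 and 9.06. Usp1, the deubiquitinase of FANCD2 and PCNA, read 10.10 and 10.26. Usp7, which deubiquitinates MDM2 and p53, read 10.87 and 10.96, and its partner Gmps 10.87 and 10.94. Usp10, another p53 deubiquitinase, read 10.55 and 10.52, with its partners G3bp1 and G3bp2 at -0.10 and -0.05. Usp47 (0.02) and Usp48 (0.01) were nearly equal in both arrays. Usp11, a partner of BRCA2, had the lowest difference at 8.42 and 8.25, and Usp42 read 10.06 and 9.89. All 10 differences lie within the receptor scatter.

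The signalling list, with 6 of 7 members detected, held Usp46 and otherwise small differences. Usp46 read 9.27 with DMSO and 8.41 with celastrol, 1.82-fold lower, and 1.25% of detected genes had a lower difference. It works as a complex with the WD-repeat activators Wdr48 and Wdr20, as does its close relative Usp12. Usp12 read 8.38 and 8.45, a difference of 0.07. Wdr48, which also activates Usp1, read 10.74 and 10.53, and Wdr20 8.46 and 8.50. Only Usp46 among these 4 was past 1.5-fold. The non-coding Usp46os2 read 6.06 and 5.93, near the limit. Usp9x, a protease of TGF-beta and other pathways, was higher at 10.84 and 11.10. Usp4 (10.36 and 10.18), Usp15 (9.98 and 9.91) and Usp34 (10.15 and 10.05), which act on the TGF-beta receptor, SMADs and axin, were each lower by less than 0.20.

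The list of endosome, ER, Golgi and mitochondrial members had the highest median of the role lists, 0.22 over 7 detected genes. Of these 7, 6 were positive, beside 68.1% of detected USPs and 48.1% of all detected genes, and 0 reached 1.5-fold. With so few genes, the count does not set the list apart. Usp33, which deubiquitinates receptors such as the beta-adrenergic receptor and Robo1, read 9.56 with DMSO and 10.11 with celastrol, 1.47-fold higher. Its relative Usp20 read 7.72 and 7.88. Usp32, a membrane-bound protease of the Golgi and endosomes, read 9.50 and 9.87, 1.29-fold higher, and Usp19, anchored in the ER, read 9.79 and 10.01. Usp30, which opposes mitophagy on the outer mitochondrial membrane, read 9.53 and 9.57. Usp6nl, the RabGAP, read 9.14 and 9.46. Usp8, which trims ubiquitin from receptors on endosomes, was the negative member at 9.64 and 9.45. The ESCRT-0 sorting proteins that work with Usp8 were at least 1.5-fold higher, as were 6.19% of all detected genes. Stam2 read 9.07 and 9.90, Hgs 9.59 and 10.24, and Stam 9.03 and 9.64. Usp8 and these partners thus differed in sign, but the difference of Usp8 (-0.19) lies within the receptor scatter. Among the detected members of this list, only Usp33 lies outside that scatter.

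**Figure D3:**
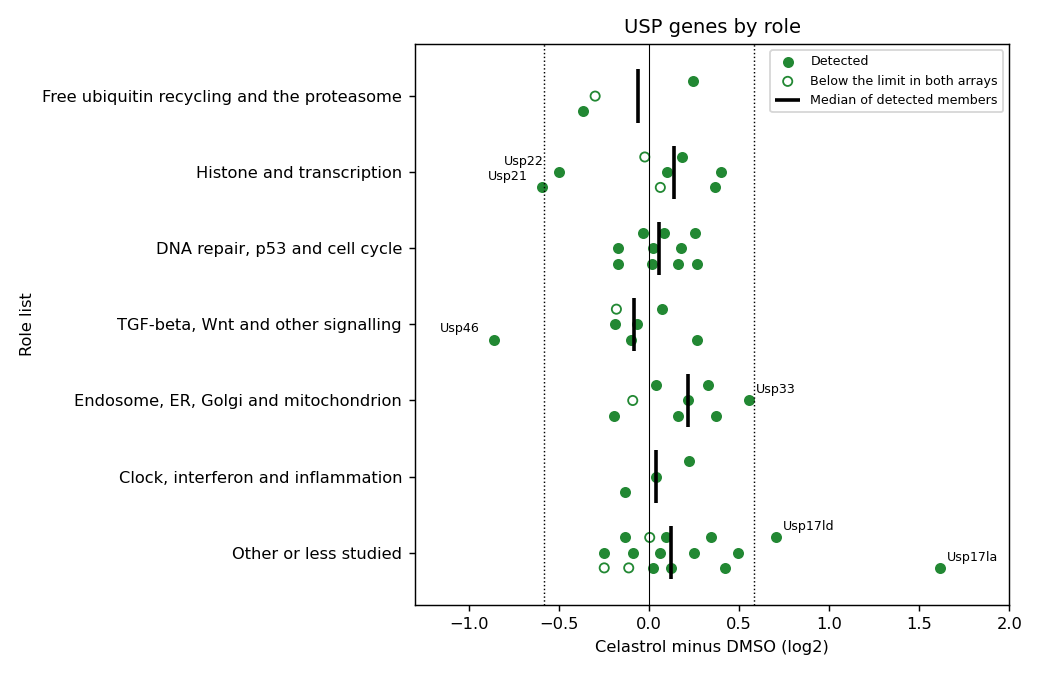
Celastrol minus DMSO (log2) for the 55 USP genes in 7 role lists; filled points are detected genes, open points are below the limit in both arrays, thick bars are medians of detected members and dotted lines mark 1.5-fold. Medians run from -0.08 for the signalling list to 0.22 for the endosome and organelle list, and the points beyond the dotted lines are Usp46, Usp21, Usp17ld and Usp17la.

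Usp2, Usp18 and Usp25 are known from the clock, interferon responses and inflammation, and none differed by more than 0.22. Usp2, a rhythmic clock output gene, read 6.30 with DMSO and 6.34 with celastrol. In the same arrays 7 of 8 listed clock genes were at least 1.5-fold higher, beside 6.19% of all detected genes. They were led by the repressors Nr1d1 (8.89 and 11.20, 4.96-fold) and Nr1d2 (2.25-fold). Dbp, another output gene, was 1.62-fold higher, and Per1 was at 0.02. Usp18, the ISG15 protease, read 5.88 and 6.10, just above the limit. Of the genes that attach ISG15, Ube2l6 was 1.54-fold lower (8.42 and 7.79), Uba7 was at -0.41, and Herc6 was 1.60-fold higher (7.44 and 8.12). Usp25, which acts in interleukin signalling, read 9.33 and 9.20.

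Among the remaining members, Usp31 had the highest difference once the Usp17l genes are set aside, reading 8.45 with DMSO and 8.88 with celastrol, which is 1.34-fold. Its second probe set gave a like difference of 0.32. Usp53 and Usp54, related genes, read 8.14 and 8.39 and 9.49 and 9.25, the second Usp54 probe set giving -0.18. The 2 probe sets of Usp24 differed in sign. The one with the higher mean read 9.66 with DMSO and 9.78 with celastrol (0.12), and the other read 6.38 and 6.31 (-0.07). Usp43 read 5.95 and 6.01, just above the limit, and Usp40 read 8.30 and 8.22. Usp45 (0.09) and Usp38 (0.02) were also close to equal in both arrays.

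Pairs of related genes, chosen after the values were seen, gave 9 pairs with both genes detected, 4 with opposite signs and 5 with the same sign. Each pair of opposite sign holds a gene within the receptor scatter, so the sign count says little. Usp4 enters both the pair with Usp15 and the pair with Usp11. The gap within a pair exceeded the size of a 1.5-fold difference for 2 pairs, Usp12 and Usp46 (0.93) and Usp22 and Usp27x (0.87 in size). Related genes within these 2 pairs had unequal differences, whereas those of Usp4 and Usp11 were -0.19 and -0.17. How often unrelated genes show such a gap was not computed, so the count does not set related genes apart.

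**Figure D4:**
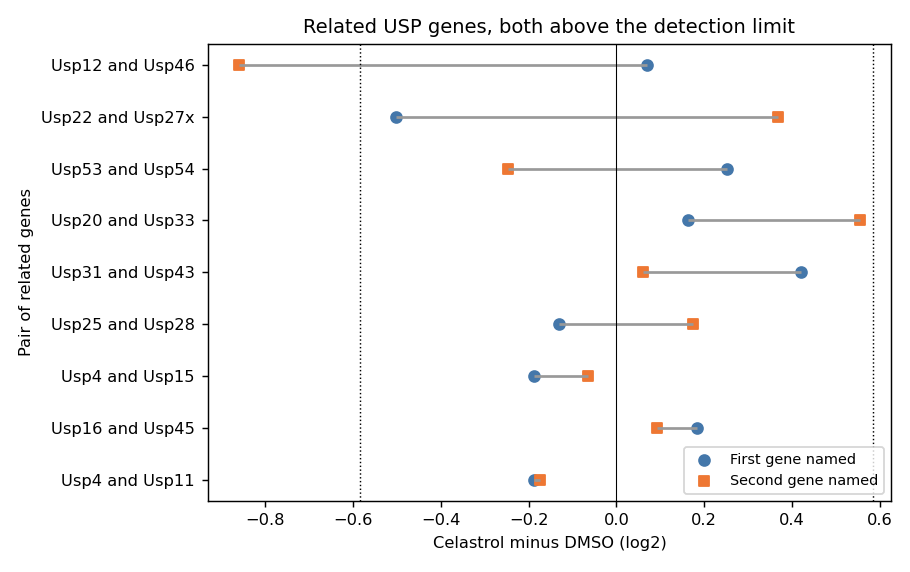
Celastrol minus DMSO (log2) for 9 pairs of related USP genes, both detected; circles show the gene named first and squares the gene named second, with dotted lines at 1.5-fold. The top 2 bars, Usp12 with Usp46 and Usp22 with Usp27x, cross 0 and are the longest, and the Usp4 and Usp11 symbols nearly coincide.

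All 36 listed genes of the other deubiquitinase families were detected. The list was drawn by protein fold, so it holds genes that are not deubiquitinases, such as Uspl1, and Cyld has the USP fold itself. Their median was 0.05, and 3 were higher and 2 lower by 1.5-fold or more. Of all detected genes, 6.19% were higher and 4.68% lower by that size, so these few genes do not set the list apart. Stambpl1, a JAMM metalloprotease of endosomes, read 9.78 with DMSO and 10.68 with celastrol, 1.86-fold higher. Atxn3, the Josephin protease mutated in a spinocerebellar ataxia, read 7.36 and 7.98, and Uspl1, a SUMO protease with a USP-like fold, 9.83 and 10.43. Mindy2, specific for long ubiquitin chains, read 7.45 and 6.27, 2.25-fold lower. Tnfaip3, the NF-kB inhibitor A20, read 8.91 and 8.01, 1.87-fold lower, and Cyld, an NF-kB regulator of the USP fold, 10.11 and 9.74. Whether these families differ from the USPs was not tested. Of 6 ubiquitin and E1 genes, Uba6 alone had a probe set naming it singly, at -0.20.

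**Figure D5:**
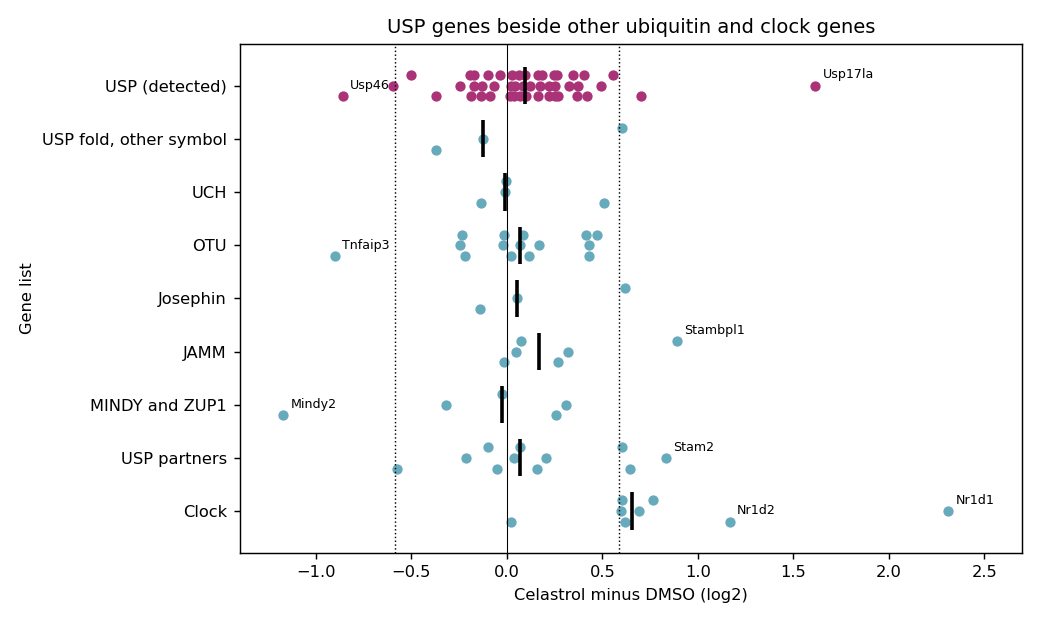
Celastrol minus DMSO (log2) for detected USP genes (purple) beside other deubiquitinase families, USP partners and clock genes (blue); black bars are medians and dotted lines mark 1.5-fold. The USP median is 0.09 and that of the clock list 0.66, and Mindy2 (-1.17), Tnfaip3 (-0.90) and Stambpl1 (0.89) lie farthest from 0 among the other deubiquitinases.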

How the data were processed

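Transcripts of mouse embryonic fibroblasts were read on 2 Affymetrix whole-transcript arrays, 1 per condition. The deposited values are log2 expression that the authors computed with RMA, as the submitters' processing notes name it. For its version, its settings and any arrays normalized together with these, the answer is not given in the sources used here. That the base is 2 was read from the range (2.73 to 14.5, medians 6.33 and 6.35). Of 35556 probe sets, the platform annotation named 1 gene for 21797, several for 1613 and none for 12146; only the first entered. Entrez identifiers of 21698 were found in RefSeq's GRCm38.p6 table, used for names. Probe set values do not rank genes by abundance. The number of arrays limits the precision.

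Members, role lists and the other lists were chosen with earlier results of these data known. Values in both arrays are given for members at least 1.5-fold apart, up to 3 at each end of each role list, the 5 detected members with the highest and the 5 with the lowest mean, members whose probe sets differ in sign, and others as context. Promoters were matched by gene identifier or symbol for 43 of 55 members. Alternatives changed the detection limit, probe set choice and normalization. The mean recovery of planted differences of 2-fold or more was tested on simulated data, in genes well above the limit. That simulation covers neither counts near 1.5-fold nor dim genes. Python 3.11.15, numpy 2.4.6, pandas 2.3.3, statsmodels 0.14.6 and biopython 1.88 were used.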

Additional observations from a re-analysis of the deposited data

How the results depend on the processing

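The number of USP genes at least 1.5-fold higher was 2, and became 1 with the median of all probe sets as the detection limit and 3 with a lowess trend subtracted, where Usp33 (0.61) joined. Leaving out Usp6nl, Usp46os2 and the Usp17l genes, chosen after seeing the data, made it 0 at 1.5-fold and 0 at 2-fold. The number at least 1.5-fold lower was 2, and became 1 with quantile normalization and 1 with the lowess trend subtracted, as Usp21 moved to -0.58 and -0.53. The other alternatives (no detection limit, averaging the probe sets of a gene, subtraction of the median difference) left these counts at 2 and 2, and the count at least 2-fold lower stayed at 0 under all. In 276 recalculations of single genes, 0 moved by more than 0.21, the standard deviation of the receptor probe sets' differences, and Usp10 (-0.04 to 0.01) alone changed sign. Many of these recalculations could not move. A changed detection limit leaves a gene's difference as it was, and averaging probe sets can alter only the 3 members with several. The rest renormalize the same 2 arrays, so the count does not measure how repeatable a difference is. No paired analysis was possible because each condition has 1 array. Signal near background limits Usp17la to Usp17ld, Usp2, Usp18 and Usp43.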
